A study of Mus musculus with 16 samples.

Results

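In whole mouse lung, 114 array probes read transcripts that were already present in room air and stood at least 1 log2 unit, that is 2-fold, higher after cigarette smoke. A probe was a member if its detection p-value was under 0.05 on all 16 arrays and if log2 of its signal over its array's median signal averaged at least 1 higher on the 10 smoke arrays than on the 6 air arrays. Of 25697 probes, 12316 were detected on every array, and the members were 0.926% of those. A table of the array platform names 111 of the 114 probes, which stand for 94 of the 8644 named genes detected on every array, and 13 of these genes have more than 1 member probe. The 3 other probes have no gene name here and are given by their probe number. The members were thus chosen by their smoke minus air difference on these same arrays, so their smoke differences are given as a description. Members are tested only between the genotypes. The rule used the arrays of both genotypes, so counts of members in those tests are not wholly free of it either.

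The study set knockout against wild-type lungs, with and without smoke, in 4 groups. The KO smoke group (n = 5) were Mmp28-/- mice on a C57BL/6 background that breathed smoke of reference cigarettes on 5 days of each week for 3 months, 3 hours at a time, and were 7 to 9 weeks old when exposure began. The KO air group (n = 3) were Mmp28-/- mice kept in room air in a chamber of like design at the same facility. The WT smoke group (n = 5) and the WT air group (n = 3) were C57BL/6 mice with Mmp28 intact, treated in the same 2 ways. All groups thus share the C57BL/6 background, and the labels describe matching for age and sex without giving either for single samples. The labels name no cell type for the knockout, and no collection time of day. Each array read total RNA from homogenate of a whole lung, so that fewer cells of a type and less RNA per cell cannot be told apart. The labels number the replicates and leave unsaid whether each is a different mouse, and the p-values thus rest on a spread among samples that may be technical.

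Mmp28, also called epilysin, is a secreted metalloproteinase made by airway epithelium and macrophages. Long exposure to cigarette smoke is known to fill the air spaces with macrophages laden with lipid and particles, which carry lysosomal proteases and the elastase Mmp12. Fibroblasts and smooth muscle cells lay down the collagens, proteoglycans and elastic fibre proteins of the airway and vessel walls. Ciliated cells clear the airway by beating, and club cells hold the cytochrome P450 and transferase enzymes that modify inhaled chemicals.

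Values below are log2 intensities after background correction and quantile normalisation, and differences between groups are in log2 units. The number of arrays, 3 in each air group, limits the precision. The array of WT air replicate 1 stood apart. It had the fewest detected probes (13971, against up to 15238 on the other arrays), and its median Spearman correlation with the other arrays of its group was 0.9589, where the other arrays had 0.9719 to 0.9874. The lowest of those, 0.9728 and 0.9719, are the other WT air arrays, whose values include their correlation with it. It was the lowest of the 16 arrays for 72 of the 114 members, so the main counts and medians that rest on the WT air group are also given without it, and single WT smoke differences mostly with it. In those counts and medians the members stayed the ones chosen with all 16 arrays. The background level of the array differed with exposure, at 126 ± 2.71 in KO smoke and 114 ± 4.99 in KO air, and at 130 ± 2.58 in WT smoke and 121 ± 3.08 in WT air (SD). Xist, the RNA that coats the inactive X chromosome, was detected on all 16 arrays. It lay between 7.83 and 9.19 in KO smoke, between 10.08 and 10.32 in KO air, between 7.30 and 8.87 in WT smoke and between 9.37 and 10.39 in WT air, so that smoke and air arrays did not overlap. With array background as a covariate, limma called 46 members higher with smoke in KO lungs (107 without the covariate) and 100 in WT lungs (111 without it), and 0 members between KO and WT in air (5 without it) or averaged over smoke and air (2 without it). How many of all probes were called with the covariate was not counted. The part of Xist in the results was not tested. Of the 2 probes for Mmp28, 1 was detected on 0 arrays and the other on all 16. The detected probe differed between KO and WT by -0.26 in smoke (adjusted p = 0.999) and by -0.12 in air (adjusted p = 0.847), so these probes do not check the genotype labels.

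Averaged over both genotypes as the rule does it, the smoke difference of the members ran from 1.00 to 3.28 with a median of 1.19. With background correction the median over members was 1.26 in KO lungs (range 0.43 to 4.36) and 1.49 in WT lungs (range 0.74 to 4.46). Smoke arrays all lay above air arrays for 108 of 114 members in KO lungs and 109 in WT lungs, against 13.1% and 14.6% of all 16126 probes tested. Across both genotypes, 87 members had every smoke array above every air array (5.05% of all probes). limma with Benjamini-Hochberg adjustment called 107 members higher with smoke in KO lungs (10.2% of all probes) and 111 in WT lungs (14.4%); the rule used this contrast, and these counts only describe it. Leaving out WT air replicate 1 gave 110 called in KO and 101 in WT lungs, and the share of all probes called without it was not counted. The members just inside the threshold were Nbl1, Cdhr3 and Bgn, and Sec14l3 (a second probe), Aoc1 and Cavin3 lay just outside it with 0.996, 0.995 and 0.994.

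**Figure D1:**
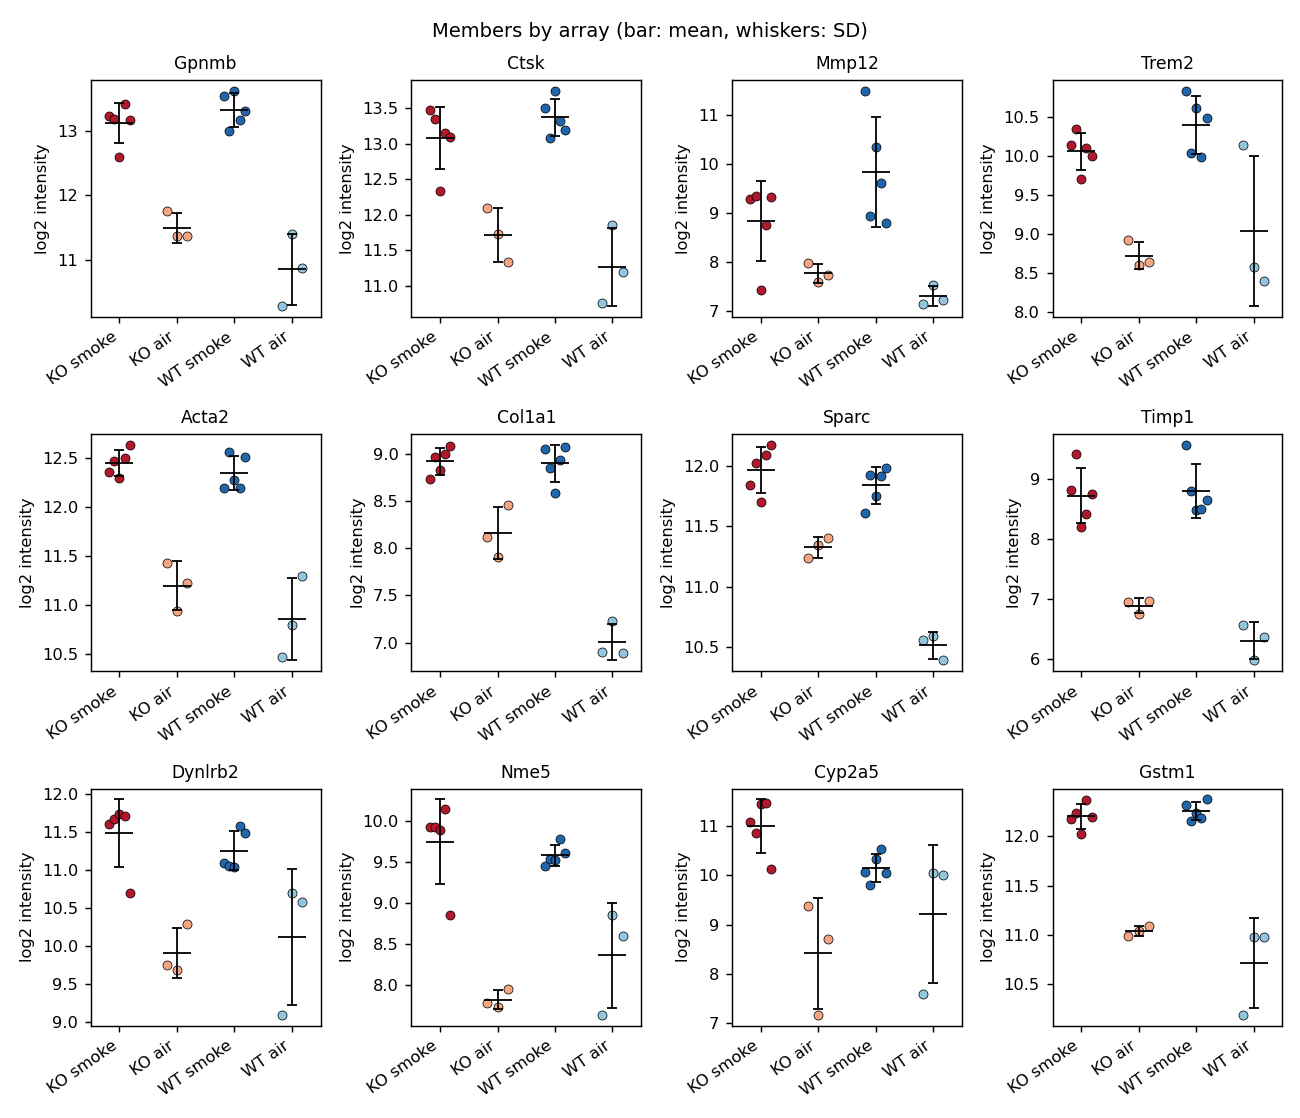
Log2 intensity (vertical axes) of 12 member transcripts on each of the 16 arrays, with 1 point for each array, in the order KO smoke, KO air, WT smoke and WT air, and with bars at group means and whiskers of 1 SD. For Gpnmb, Ctsk, Acta2, Col1a1, Sparc, Timp1 and Gstm1 every smoke array lies above every air array, whereas Mmp12, Trem2, Dynlrb2, Nme5 and Cyp2a5 have overlapping arrays.

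The members were read by role, in groups drawn up with the values known, so no test is run over a group. Genes of macrophages and lysosomes were read by 17 probes for 13 genes, with median smoke differences of 1.29 in KO and 1.95 in WT lungs, the highest median of the role groups in WT. Gpnmb, a membrane glycoprotein of lipid-laden macrophages, read 13.23, 13.17, 12.59, 13.41 and 13.17 in KO smoke lungs, against 11.76, 11.37 and 11.37 in KO air lungs. In WT lungs it read 13.54, 12.99, 13.62, 13.17 and 13.30 with smoke, against 10.29, 11.39 and 10.88 in air. All smoke values were above all air values in both genotypes, and the smoke difference was 1.62 in KO and 2.47 in WT lungs. A second, dimmer Gpnmb probe gave 1.88 in KO and 2.97 in WT lungs, and 2 Gpnmb probes that missed the rule gave 1.76 and 1.17 in KO, and 2.13 and 1.47 in WT.

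Ctsk, a lysosomal cysteine protease that degrades collagen, read 13.47, 13.35, 12.34, 13.15 and 13.10 in KO smoke lungs, against 12.09, 11.73 and 11.33 in KO air lungs. The WT lungs read 13.50, 13.09, 13.75, 13.33 and 13.20 with smoke, against 10.76, 11.85 and 11.20 in air. The arrays of smoke and air did not overlap, and KO smoke replicate 3 was the lowest smoke array. That array was also the lowest of its group for Gpnmb and Mmp12. The differences for Ctsk were 1.36 in KO and 2.10 in WT lungs.

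Mmp12, the macrophage elastase, varied most between replicates within this role group. It read 9.28, 9.34, 7.43, 8.75 and 9.32 in KO smoke lungs, against 7.97, 7.58 and 7.74 in KO air lungs. In WT lungs the values were 11.50, 8.93, 10.35, 9.61 and 8.80 with smoke, against 7.15, 7.53 and 7.23 in air. KO smoke replicate 3 fell below the KO air arrays, while no WT smoke array did so. The smoke difference was 1.06 in KO lungs and 2.54 in WT lungs. The promoter of Mmp12 holds an AP-1 site, the element bound by Fos and Jun proteins, and is shown because the same letters were searched in all members. The 150 bases come from RefSeq (GRCm38.p6, chr9:7347224-7347373, plus strand, part of a window from 250 bases before to 50 bases after the start), and capitals mark TGANTCA, 44 bases upstream of the start.
Mmp12: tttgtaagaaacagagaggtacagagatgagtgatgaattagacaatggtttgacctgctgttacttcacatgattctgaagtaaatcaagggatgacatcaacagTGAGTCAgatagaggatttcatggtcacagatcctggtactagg
Of the 94 genes, 69 had promoter windows in the RefSeq table, 79 windows in all. TGANTCA, searched on both strands, was in 12 of the 79 (15.2%), against 7.81% of all 32851 windows of that length. Windows of 1 gene can overlap, and those of Dmkn starting at chr7:30763506 and chr7:30763508 hold the same match, so windows are not independent. In the macrophage and lysosome group it was in 3 of 14 windows. N stands for any base, and the match was TGAGTCA in Mmp12, TGACTCA in Gpnmb and TGAATCA in Trem2.

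The other members of this role group covered several steps of uptake and digestion. Ear6, a secreted ribonuclease of macrophages and eosinophils, read 10.73, 10.41, 8.91, 10.29 and 9.91 in KO smoke lungs, against 5.59, 5.85 and 5.64 in KO air lungs. Its WT smoke lungs read 11.25, 9.13, 11.01, 10.39 and 9.77, against 5.48, 6.03 and 6.04 in WT air lungs. The difference of 4.36 in KO and 4.46 in WT lungs was the widest of all members in both genotypes, over an air signal of 155 on the raw scale, the lowest of the members and close to the mean air background of 118. Ear6 belongs to a family of near-identical genes whose RNAs a probe may not tell apart.

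Scavenger and sensing receptors of macrophages were among the members too. Marco, which binds inhaled particles, differed by 1.44 in KO and 1.59 in WT lungs, and Trem2, a receptor for lipids, by 1.34 and 1.35. WT air replicate 1 read 10.15 for Trem2, against 8.59 and 8.40 on the other WT air arrays, and overlapped the WT smoke arrays. Cd63, a membrane protein of late endosomes and lysosomes, was read by 3 member probes with differences of 1.06 to 1.29 in KO and 1.67 to 1.95 in WT lungs. Ch25h, which makes 25-hydroxycholesterol, differed by 1.85 in KO and 2.77 in WT lungs, and Mfge8, a bridge between dying cells and phagocytes, by 1.24 and 1.27 in KO and by 1.96 and 1.73 in WT lungs over 2 probes. Fabp5, a fatty acid carrier, differed by 1.07 in KO and 1.64 in WT lungs.

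Lists of genes for the cells of the air spaces hold probes outside the members too, to be read beside the 9.82% of all probes called lower with smoke in KO lungs and the 13.4% in WT lungs. Of 12 alveolar macrophage probes, 2 were called higher and 1 lower in KO lungs, and 4 higher and 0 lower in WT lungs, with Marco and Car4 among the members. Of 12 probes for monocytes and interstitial macrophages, 0 were higher and 2 lower in KO, and 0 higher and 3 lower in WT. Of 39 probes for lysosome and lipid handling, 16 were called higher in KO and 22 in WT, and 0 lower in either, and 9 of these probes are members. Of 36 chemokine and cytokine probes, 5 were higher and 4 lower in KO, and 8 higher and 3 lower in WT.

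Genes of the extracellular matrix and of contractile or fibroblast-like cells were the largest role group, with 27 probes for 21 genes. Their median smoke difference was 0.96 in KO lungs and 1.50 in WT lungs. Acta2, smooth muscle actin, read 12.36, 12.47, 12.29, 12.50 and 12.63 in KO smoke lungs, against 11.43, 10.93 and 11.23 in KO air lungs. It read 12.19, 12.56, 12.27, 12.20 and 12.51 in WT smoke lungs, against 10.46, 10.80 and 11.30 in WT air lungs. Every smoke array was above every air array, and 4 Acta2 probes gave smoke differences of 1.20 to 1.51 in KO and of 1.49 to 1.79 in WT lungs.

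Col1a1, a chain of the main fibrillar collagen, read 8.73, 8.97, 8.82, 9.00 and 9.08 in KO smoke lungs, against 8.12, 7.91 and 8.46 in KO air lungs. WT smoke lungs read 9.05, 8.85, 8.59, 8.93 and 9.07, against 6.90, 7.23 and 6.89 in WT air lungs. The smoke arrays of both genotypes covered the same range, and the 3 KO air arrays lay between them and the 3 WT air arrays. The smoke difference was 0.76 in KO and 1.89 in WT lungs.

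Sparc, a collagen-binding glycoprotein, read 11.84, 12.02, 11.70, 12.09 and 12.17 in KO smoke lungs, against 11.23, 11.34 and 11.40 in KO air lungs. WT smoke lungs read 11.61, 11.92, 11.75, 11.92 and 11.98, against 10.56, 10.59 and 10.39 in WT air lungs. Here too the KO air arrays lay between the smoke arrays and the WT air arrays. The smoke difference was 0.64 in KO and 1.32 in WT lungs, and a second Sparc probe gave 0.73 and 1.29.

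Among small proteoglycans, Bgn differed by 0.54 in KO and 1.23 in WT lungs. Dcn, which binds collagen fibrils, differed by 0.58 and 0.43 in KO lungs over 2 probes and by 1.52 and 1.36 in WT lungs. Col5a1, a collagen that sets fibril width, differed by 0.85 in KO and 1.73 in WT lungs, and Mfap4, a protein of elastic fibres, by 1.18 and 1.69. The gelatinase Mmp2 differed by 0.88 in KO and 1.69 in WT lungs. Timp1, an inhibitor of metalloproteinases, read 8.81, 9.41, 8.20, 8.42 and 8.75 in KO smoke lungs, against 6.94, 6.75 and 6.96 in KO air lungs. In WT lungs it read 9.56, 8.79, 8.48, 8.49 and 8.65 with smoke, against 6.57, 5.97 and 6.36 in air. No air array reached a smoke array, and the differences of 1.83 in KO and 2.49 in WT lungs were the widest of the matrix genes.

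Of 27 probes on a list for proteases, inhibitors and matrix, which includes members, 4 were called higher and 3 lower in KO lungs, and 13 higher and 3 lower in WT lungs. The 4 in KO were the 4 member probes of the list, for Col1a1, Mmp2 and Timp1. The median over the list was 0.02 in KO and 0.55 in WT lungs. Of 26 probes for endothelial, stromal and other tissue markers, 10 were higher and 1 lower in KO, and 18 higher and 1 lower in WT. The 10 in KO were 4 of Acta2, 2 of Actc1 and 1 each of Myh11, Des, Tagln and Pdgfrb, a receptor of mural cells and fibroblasts, and the lower one was Alas2, of red cell precursors. Smooth muscle genes outside the members were also called in both genotypes. Myh11, the smooth muscle myosin heavy chain, rose by 1.25 in KO and 1.33 in WT lungs, Tagln by 1.17 and 1.16, and Des by 1.17 and 1.51.

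**Figure D2:**
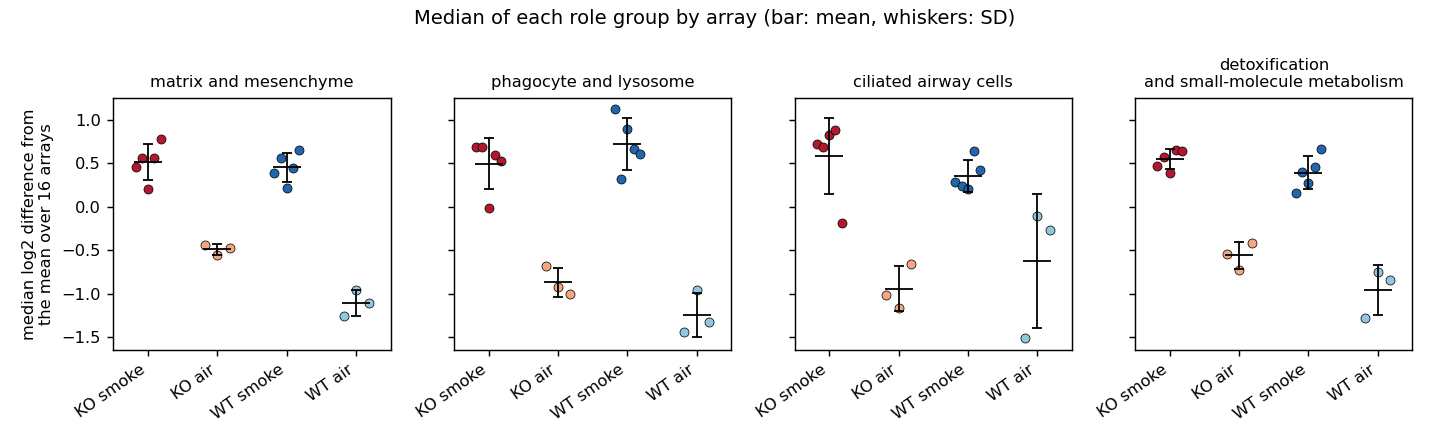
Median log2 difference of the member probes of 4 role groups on each array from each probe's mean over the 16 arrays (vertical axis), with arrays grouped as KO smoke, KO air, WT smoke and WT air and with bars at group means and whiskers of 1 SD. For matrix and mesenchyme the KO air arrays lie at -0.44, -0.56 and -0.47 and the WT air arrays at -1.26, -0.96 and -1.11, and for ciliated cells WT air replicate 1 lies at -1.51, against -0.11 and -0.27 on the other WT air arrays.

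Genes of ciliated airway cells formed a group of 10 probes for 9 genes, with a median smoke difference of 1.53 in KO and 1.03 in WT lungs. Dynlrb2, a light chain of the dynein motor, read 11.61, 11.68, 11.74, 11.72 and 10.70 in KO smoke lungs, against 9.75, 9.68 and 10.29 in KO air lungs. It read 11.10, 11.06, 11.05, 11.58 and 11.49 in WT smoke lungs, against 9.09, 10.70 and 10.58 in WT air lungs. KO smoke replicate 5 was about 1 unit under its group, and WT air replicate 1 was more than 1 unit under the other WT air arrays. The smoke difference was 1.58 in KO and 1.13 in WT lungs.

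Nme5, a protein of the ciliary radial spoke, read 9.93, 9.93, 9.89, 10.15 and 8.85 in KO smoke lungs, against 7.78, 7.73 and 7.95 in KO air lungs. In WT lungs it read 9.44, 9.53, 9.52, 9.78 and 9.61 with smoke, against 7.63, 8.85 and 8.60 in air. The same 2 arrays, KO smoke replicate 5 and WT air replicate 1, were low again. The smoke difference was 1.93 in KO and 1.22 in WT lungs, and for Rsph1, another radial spoke protein, it was 1.47 and 1.05. Drc3, of the dynein regulatory complex, differed by 1.49 in KO and 0.92 in WT lungs, and Cdhr3, a cadherin of ciliated cells, by 1.44 and 0.74.

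Without WT air replicate 1, the median of these 10 probes in WT lungs was 0.57, against 1.03 with it, and for Dynlrb2 the difference was 0.62, against 1.13 with it. limma called 10 of the 10 higher in WT lungs with that array (14.4% of all probes) and 2 without it. In KO lungs it called 10 in both fits (10.2% of all probes with that array). The share of all probes without it was not counted, and the rule used this contrast. Foxj1, the regulator of motile cilia, and Tppp3, a tubulin-binding protein of ciliated cells, are on the airway list and are no members. Foxj1 differed by 0.41 in KO (adjusted p = 0.073) and 0.08 in WT lungs (adjusted p = 0.749), and Tppp3 by 0.31 in KO (adjusted p = 0.11) and 0.41 in WT lungs (adjusted p = 0.03). Of 14 airway epithelial probes on that list, 5 were called higher and 0 lower in KO lungs, and 2 higher and 1 lower in WT lungs. The 5 in KO were 4 probes of Cyp2a5, an enzyme of club cells, and Dynlrb2.

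The X-box is the promoter element bound by RFX proteins in genes of cilia. Its core, GTTGCC on either strand, was in 4 of 8 promoter windows of the ciliated group (50%), in 14 of 79 member windows (17.7%) and in 12.5% of all 32851 windows. The overlapping windows of Dmkn count the same match more than once among the 14. The 4 promoters are shown for the place of that core, 150 bases each from RefSeq (GRCm38.p6), with the core in capitals. In 1110017D15Rik (chr4:41507765-41507914, minus strand) the core occurs on both strands, 18 and 11 bases upstream of the start. In Dynlrb2 (chr8:116504865-116505014, plus strand) it lies 51 bases upstream, in Mlf1 (chr3:67373947-67374096, plus strand) 105 bases upstream, and in Cdhr3 (chr12:33092876-33093025, minus strand) 6 bases upstream.
1110017D15Rik: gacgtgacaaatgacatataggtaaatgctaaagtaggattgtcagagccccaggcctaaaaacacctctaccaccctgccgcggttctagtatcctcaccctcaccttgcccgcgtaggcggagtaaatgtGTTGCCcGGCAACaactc
Dynlrb2: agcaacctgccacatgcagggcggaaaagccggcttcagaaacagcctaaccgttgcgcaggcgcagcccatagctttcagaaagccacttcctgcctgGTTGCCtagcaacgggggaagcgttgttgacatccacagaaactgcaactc
Mlf1: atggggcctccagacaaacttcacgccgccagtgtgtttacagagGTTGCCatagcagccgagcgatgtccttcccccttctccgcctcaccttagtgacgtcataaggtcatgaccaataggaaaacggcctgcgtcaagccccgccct
Cdhr3: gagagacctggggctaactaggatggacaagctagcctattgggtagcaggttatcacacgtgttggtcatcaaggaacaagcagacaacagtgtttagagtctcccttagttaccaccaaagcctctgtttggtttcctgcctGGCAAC
A match is a stretch of letters and not a bound site. The CArG box, an element of smooth muscle genes, was in 0 of 79 member windows (1.63% of all), and the antioxidant response element core TGACNNNGC was in 5 of 79 (6.33%, against 12.4% of all). The E-box CACGTG was in 7 of 79 (8.86%, against 7.15%), TATAAA in 9 of 79 (11.4%, against 13.6%) and TCATGTG, an M-box core, in 1 of 79 (1.27%, against 3.77%), each searched on both strands.

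Enzymes that act on foreign and small molecules made up 15 probes for 11 genes, with medians of 1.08 in KO and 1.28 in WT lungs. Gstm1, a glutathione transferase, read 12.18, 12.24, 12.03, 12.37 and 12.20 in KO smoke lungs, against 10.99, 11.04 and 11.09 in KO air lungs. In WT lungs it read 12.32, 12.16, 12.24, 12.19 and 12.38 with smoke, against 10.18, 10.97 and 10.98 in air. Each group was narrow apart from WT air replicate 1, and the smoke differences were 1.17 in KO and 1.55 in WT lungs. A second, dimmer Gstm1 probe that missed the rule gave 0.25 in KO (adjusted p = 0.546 by limma) and 0.24 in WT lungs (adjusted p = 0.541). Gstm2 was read by 3 member probes with differences of 0.76 to 0.98 in KO and of 1.17 to 1.28 in WT lungs, and Gstm genes are so alike that their probes may share RNA.

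Cyp2a5, a cytochrome P450 that oxidises nicotine and coumarin in mice, was the most variable member, with a pooled within-group SD of 0.815. It read 11.07, 10.86, 11.44, 11.46 and 10.13 in KO smoke lungs, against 9.37, 7.17 and 8.70 in KO air lungs. In WT lungs it read 10.06, 9.81, 10.34, 10.54 and 10.04 with smoke, against 7.60, 10.04 and 10.00 in air. KO smoke and KO air did not overlap, whereas 2 of the 3 WT air arrays lay within the range of WT smoke. The difference was 2.58 in KO lungs and 0.95 in WT lungs. A second member probe gave 2.51 in KO and 1.14 in WT lungs. Without WT air replicate 1 the WT differences of these probes were 0.14 and 0.29, and a near-identical relative of this gene may add to these signals.

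Further enzymes had steadier arrays. The carboxylesterase Ces2g differed by 1.56 in KO and 2.08 in WT lungs, the alcohol dehydrogenase Adh1 by 1.26 and 1.01 in KO and by 1.66 and 1.62 in WT lungs over 2 probes, and the secreted glutathione peroxidase Gpx3 by 0.98 and 1.47. Of 41 probes on a list of oxidant and xenobiotic response genes, 12 were called higher and 1 lower in KO lungs, and 11 higher and 0 lower in WT lungs, with Gstm1 the member among them. At the other end of the spread were Plpp3, Gstm2 and Fblim1, with pooled within-group SDs of 0.131, 0.136 and 0.149.

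Genes of vessels were 4 of the members. Epas1, the hypoxia-regulated factor of lung endothelium, differed by 1.31 in KO and 1.59 in WT lungs, and Gja4, a gap junction protein of arteries, by 0.66 and 1.49. Vegfd, a growth factor for lymphatic and blood vessels, differed by 1.24 in KO and 1.53 in WT lungs, and Ptgis, which makes prostacyclin, by 1.01 and 1.45. Of the endothelial markers Cdh5, Tek, Vwf, Kdr and Pecam1, which are no members, no probe was among those called in KO lungs, and Cdh5, Tek, Vwf and 1 of 2 probes for Pecam1 were called higher in WT lungs. Cdh5 differed by 0.16 in KO (adjusted p = 0.603) and 0.68 in WT lungs (adjusted p = 0.0147), Vwf by 0.13 (adjusted p = 0.577) and 0.52 (adjusted p = 0.0126), and Kdr by -0.31 (adjusted p = 0.0687) and -0.24 (adjusted p = 0.129), by limma over all probes.

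Of the remaining 41 probes, Cxcr1 had the widest difference by the rule, 3.28. Cxcr1, a receptor for neutrophil-attracting chemokines, read 11.83, 11.83, 10.56, 11.65 and 11.33 in KO smoke lungs, against 8.61, 7.88 and 7.93 in KO air lungs. In WT lungs it read 12.42, 11.49, 12.11, 11.81 and 11.39 with smoke, against 7.05, 8.17 and 8.07 in air. The gap between smoke and air was wider than the range within any group, with differences of 3.30 in KO and 4.08 in WT lungs. A list of neutrophil markers and acute phase genes held 28 probes, of which 4 were called higher and 6 lower in KO, and 6 higher and 6 lower in WT. The higher ones in KO were the acute phase genes Orm1 and Lcn2 and 2 probes of the myeloid receptor Clec5a. The lower ones in KO were 5 probes of Csf3r, the receptor for the neutrophil growth factor G-CSF (-0.81 to -1.44), and 1 of Clec4e, a myeloid lectin. In WT lungs 4 Csf3r probes were lower.

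Serpina3n, a serine protease inhibitor of the acute phase, read 11.30, 11.62, 11.05, 11.34 and 11.71 in KO smoke lungs, against 9.33, 9.43 and 9.49 in KO air lungs. It read 11.78, 11.60, 10.90, 11.20 and 11.59 in WT smoke lungs, against 8.88, 8.42 and 8.41 in WT air lungs. Smoke and air arrays were separate, with differences of 1.99 in KO and 2.84 in WT lungs. Spag11b, a gene for defensin-like secreted peptides, differed by 2.16 and 2.13 in KO and by 2.58 and 2.44 in WT lungs over 2 probes. S100a1, a calcium-binding protein, differed by 1.52 in KO and 2.01 in WT lungs, and the growth factor Igf1 by 2.03 and 2.12. Zranb3, a DNA translocase, differed by 1.95 in KO and 2.44 in WT lungs. The neutrophil glycoprotein Cd177 differed by 1.81 in KO lungs and by 0.94 in WT lungs, and WT air replicate 1 read 10.24, against 8.67 and 8.63 on the other WT air arrays. The unnamed probes ILMN_2619200, ILMN_2735350 and ILMN_2950622 differed by 2.60, 2.31 and 1.67 in KO and by 2.40, 2.74 and 1.17 in WT lungs.

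**Figure D3:**
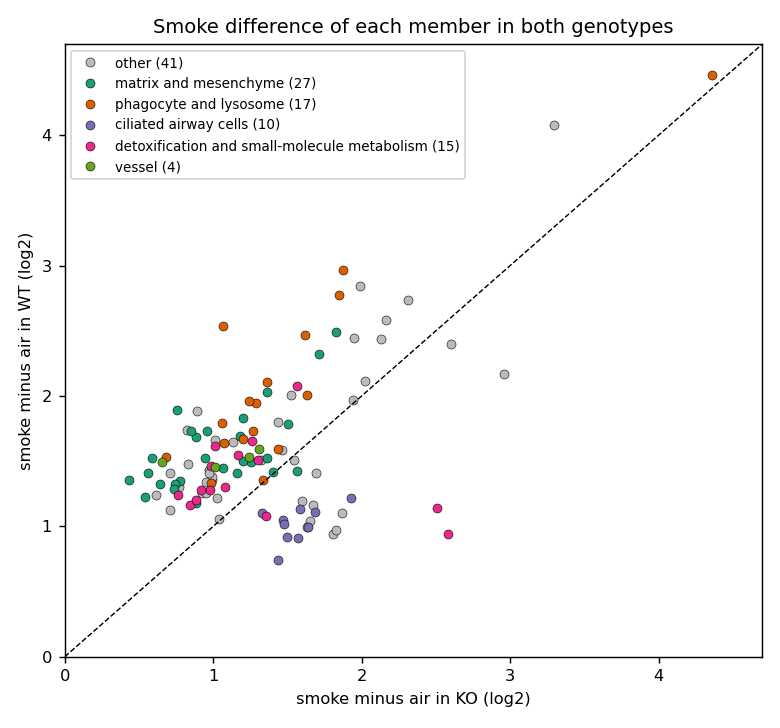
Smoke minus air difference (log2) of each of the 114 member probes in KO lungs (horizontal axis) and WT lungs (vertical axis), coloured by role group, with a dashed line of equal difference. Most points, 89 of 114, lie above the line, and the 25 below it include all 10 ciliated probes and both Cyp2a5 probes.

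Dbp, a transcription factor whose RNA follows the daily clock, was the member with the third widest difference by the rule, 2.44. It read 11.73, 11.71, 11.75, 12.12 and 12.37 in KO smoke lungs, against 8.47, 9.05 and 9.41 in KO air lungs. WT smoke lungs read 10.80, 11.18, 10.96, 11.01 and 11.57, against 8.60, 9.09 and 9.13 in WT air lungs. The 2 smoke groups did not overlap, and the 2 air groups did. The smoke difference was 2.96 in KO and 2.17 in WT lungs.

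Other clock genes were looked up after the values of Dbp had been seen, and their differences are given without any test over the list. Nr1d1, a repressor of the clock, differed by 1.31 and 1.05 in KO and by 1.57 and 1.34 in WT lungs over 2 probes. Tef, a relative of Dbp, differed by 1.31 in KO and 0.71 in WT lungs. Arntl, which drives the opposite phase, differed by -0.98 in KO and -0.62 in WT lungs. Nr1d2, a relative of Nr1d1, differed by 0.71 and 0.49 in KO and by 0.40 and 0.09 in WT lungs over 2 probes. Per2 differed by 0.34 and 0.12 in KO and by 0.11 and 0.10 in WT lungs over 2 tested probes, and Per1 by -0.29 and -0.36 in KO and by -0.64 and -0.67 in WT. Per3 differed by 0.58 in KO and 0.34 in WT lungs. The 2 tested probes of Clock gave -0.91 and -0.45 in KO and -0.79 and -0.01 in WT lungs, and those of Ciart 0.33 and 0.26 in KO and -0.04 and -0.07 in WT. The part of the hour of collection in these values was not tested.

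**Figure D4:**
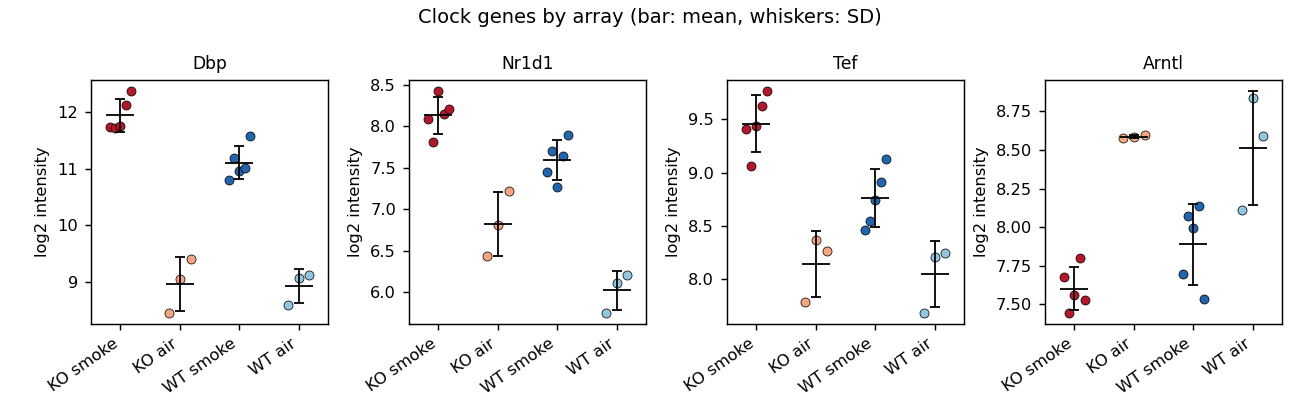
Log2 intensity of the member Dbp and of 3 other clock genes, Nr1d1, Tef and Arntl (vertical axes), on each of the 16 arrays, grouped as KO smoke, KO air, WT smoke and WT air, with bars at group means and whiskers of 1 SD. Dbp, Nr1d1 and Tef are higher and Arntl lower in the mean of the smoke arrays of both genotypes, and all 5 KO smoke arrays of Dbp lie above the 5 WT smoke arrays.

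Whether the smoke difference itself differed between the genotypes was tested as an interaction, the KO difference minus the WT difference. limma called 0 of 114 members at an adjusted p under 0.05, as it did 0% of all 16126 probes, and the smallest adjusted p of a member was 0.39, for Col1a1. At an unadjusted p under 0.05 there were 28 members with a smaller difference in KO (4.55% of all probes) and 3 with a larger one (2.85%). The median interaction was -0.38 over the members and 0.01 over all probes, and 89 of the 114 were below 0. By roles, 26 of 27 matrix probes and 17 of 17 macrophage and lysosome probes were below 0, with medians of -0.58 and -0.66, while 10 of 10 ciliated probes were above 0, with a median of 0.58. Probes of 1 gene or of 1 cell type share their arrays and are not independent, and all members share the same 3 air arrays of each genotype. The rule averaged over both genotypes, so a member could pass mainly through 1 of them. After background correction 106 members differed by at least 1 in WT lungs and 77 in KO lungs. WT air replicate 1, the lowest array for 72 members, also helped to choose them. The signs, medians and counts of the interaction are thus not free of the rule. For 34 members the 95% interval of the interaction lay within 2-fold in both directions, with a median distance of 0.66 from the estimate to its bounds, so for most members an interaction of 2-fold was within the error.

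The lowest interactions by p were those of Col1a1 (-1.14, 95% interval -1.56 to -0.71, adjusted p = 0.39), Col5a1 (-0.88, adjusted p = 0.512) and Bgn (-0.69, adjusted p = 0.522). The highest were those of Dbp (0.79, adjusted p = 0.636), Cyp2a5 (1.63, 95% interval 0.12 to 3.15, adjusted p = 0.661) and 1700016K19Rik (0.86, adjusted p = 0.668). None of these 6 passed the threshold. Without WT air replicate 1 the median was -0.35 over all members, -0.61 over the matrix probes, -0.48 over the macrophage and lysosome probes and 1.03 over the ciliated probes, and 0 members were called.

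In smoke, no member passed the test between KO and WT lungs. limma called 0 of 114, against 0.0434% of all probes, with a lowest adjusted p of 0.297. Without adjustment, 3 members had a p under 0.05 and were higher in KO smoke (1.95% of all probes), and 4 were lower (2.52%). The median difference, KO smoke minus WT smoke, was 0.03, with 67 members above 0. The 95% interval lay within 2-fold for 106 of the 114 members. Dbp had the smallest p, at 11.94 ± 0.29 in KO smoke and 11.11 ± 0.29 in WT smoke (SD, n = 5 each), a difference of 0.83 (95% interval 0.43 to 1.23, adjusted p = 0.297). It was the 1 member whose KO smoke arrays all lay above its WT smoke arrays (0.44% of all probes), and 0 members had them all below (0.645%). Of the clock genes looked up after Dbp, Tef was higher in KO smoke than in WT smoke by 0.70 (adjusted p = 0.347), Nr1d1 by 0.54 and 0.53, Nr1d2 by 0.40 and 0.70, Ciart by 0.58 and 0.70 and Per2 by 0.66 and 0.42 in the means, while Arntl differed by -0.29, Per3 by -0.02, Per1 by 0.05 and 0.16 and Clock by 0.09 and -0.06. None of them passed the threshold, with adjusted p-values of 0.347 to 0.999. In air, KO minus WT was 0.04 for Dbp, 0.80 and 0.82 for Nr1d1 (adjusted p = 0.0945 and 0.124 by limma), 0.44 and 0.40 for Per2 and 0.21 and 0.37 for Ciart. It was 0.09 and 0.31 for Nr1d2, 0.10 for Tef, 0.07 for Arntl, -0.27 for Per3, -0.30 and -0.15 for Per1 and 0.21 and 0.38 for Clock.

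Next on the higher side by p were Ptgis with a difference of 0.30 and Cyp2b10, a cytochrome P450, with 0.48 (adjusted p = 0.999 for each). On the lower side were Zranb3 with -0.65, Mmp12 with -1.01 and AA467197 with -0.74 (adjusted p = 0.999 for each). Mmp12 averaged 8.83 ± 0.82 in KO smoke and 9.84 ± 1.12 in WT smoke (SD, n = 5 each), and its 95% interval ran from -1.93 to -0.09. All 17 macrophage and lysosome probes were lower in the mean of KO smoke, by 0.07 to 1.01 with a median of -0.26, and 0 were called. On the array of KO smoke replicate 3 the median of that group was -0.02 from the mean of all arrays, against 0.52 to 0.68 in the other KO smoke lungs, and against 0.32 to 1.12 in the WT smoke lungs. The part of that array in these values was not tested. All 10 ciliated probes were higher in the mean of KO smoke, by 0.12 to 0.34, and 0 were called.

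In air, 5 members were higher in KO than in WT lungs by limma with Benjamini-Hochberg adjustment, all of them matrix genes (0.242% of all probes were called higher and 0.031% lower). Col1a1 was higher by 1.16 (95% interval 0.82 to 1.50, adjusted p = 0.0123), at 8.16 ± 0.28 in KO air and 7.00 ± 0.19 in WT air (SD, n = 3 each). Sparc was higher by 0.81, Bgn by 0.74, Dcn by 1.03 and Col5a1 by 0.78 (adjusted p = 0.0391 for each). Bgn read 12.14, 12.13 and 12.41 in KO air lungs, against 11.32, 11.62 and 11.51 in WT air lungs. Dcn read 12.09, 12.19 and 12.38 in KO air lungs, against 10.84, 11.10 and 11.62 in WT air lungs, and its second probe differed by 1.02 (adjusted p = 0.0858). In each of these 5 genes the 3 KO air arrays lay above the 3 WT air arrays.

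These calls rest on few arrays. Without WT air replicate 1, limma called 0 of the 114 members in air, with Col1a1 at 1.10 (adjusted p = 0.0624), Sparc at 0.83 (adjusted p = 0.145) and Bgn at 0.66 (adjusted p = 0.152). Without KO air replicate 1 or without KO air replicate 3 the count was also 0, and it was 8 without WT air replicate 2. The share of all probes called was not counted in any of these fits with 1 array left out.

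Across all members the difference in air, KO minus WT, had a median of 0.40, against -0.02 over all probes, and was above 0 for 87 of 114. Without WT air replicate 1 in the fit the median was 0.29, with 82 above 0. The rule itself used the air arrays, and the members stayed those chosen with that array included. These signs and medians, and the counts of members that follow, are thus not free of the rule. At an unadjusted p under 0.05 there were 48 members higher in KO air (8.18% of all probes) and 2 lower (5.52%). KO air arrays all lay above WT air arrays for 42 members (8.14% of all probes) and all below for 1, Cd177 (6.6%). With WT air replicate 1 left out they lay above for 47 (12.4%) and below for 21 (14%).

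By roles, 27 of 27 matrix probes were higher in the mean of KO air, with a median of 0.63, and without WT air replicate 1 this was 26 of 27 with a median of 0.62. For the ciliated probes the median was -0.33 with 1 of 10 above 0, and -0.78 with 0 of 10 above 0 when that array was left out. The macrophage and lysosome probes had a median of 0.45 (0.33 without that array), the vessel probes 0.58 (0.53) and the detoxification probes 0.48 (0.32). The lowest members by p were 1700016K19Rik with -0.82 (adjusted p = 0.262), Cd177 with -0.97 (adjusted p = 0.36) and Nme5 with -0.54 (adjusted p = 0.433).

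**Figure D5:**
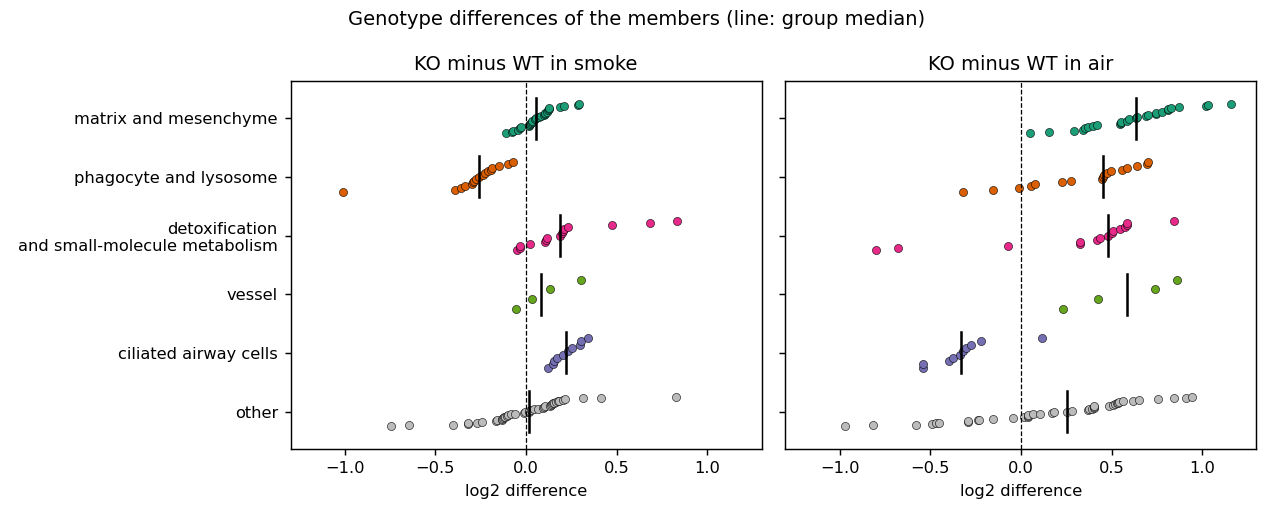
Difference of KO minus WT (log2) of each member probe in smoke (left) and in air (right), by role group, with a line at each group's median. In smoke the medians lie between -0.26 and 0.22, and in air the matrix probes have a median of 0.63 and the ciliated probes of -0.33.

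Averaged over smoke and air, 2 members were called higher in KO lungs (0.18% of all probes), Col1a1 by 0.59 and Sparc by 0.47 (adjusted p = 0.0419 for each by limma), and Bgn followed with 0.40 (adjusted p = 0.061). The lowest were Zranb3 with -0.40, 1700016K19Rik with -0.39 and Cd177 with -0.54, and 0 members were called lower (0.0496% of all probes). The median over members was 0.21, and 38 members were higher at an unadjusted p under 0.05 (7.53% of all probes). This average includes the air arrays that the rule used, so its median and counts are not free of the rule. Without WT air replicate 1 the count called was 0 and the median 0.12, and the share of all probes called was not counted there. The average for Col1a1 combines a difference of 0.02 in smoke with 1.16 in air.

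The remaining lists, of other immune cells, other tissue cells and cell functions, are to be read beside the shares of all probes called. These shares were 10.2% higher and 9.82% lower with smoke in KO lungs, and 14.4% higher and 13.4% lower in WT lungs. Of 16 B cell probes, 0 were called higher and 1 lower in each genotype, and of 15 T and NK cell probes 0 were higher and 4 lower in KO, and 0 higher and 9 lower in WT. Of 30 cell cycle probes 0 were higher and 7 lower in KO, and 0 higher and 4 lower in WT. The phagocyte oxidase list (21 probes) had 0 higher in either genotype, with 2 lower in KO and 5 in WT, and the list of Fc receptors and antigen presentation (30 probes) had 0 higher, with 3 lower in KO and 8 in WT. Of 21 alveolar epithelial probes 1 was higher and 3 lower in KO, and 5 higher and 1 lower in WT. Of 17 iron-handling probes 1 was higher and 2 lower in KO, and 2 higher and 3 lower in WT. Of 8 probes on the complement list 0 were higher and 1 lower in KO, and 2 higher and 1 lower in WT. These 8 include a probe of Olfr48, which was matched through a gene synonym and is no complement gene. It was called in neither genotype. No probe of any list, here or above, was called in the interaction, and 1, on the list of neutrophil and acute phase genes, was called between KO and WT in smoke.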

How the data were processed

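Total RNA was hybridised to 16 Illumina MouseRef-8 v2 arrays. The authors deposited an intensity for each of 25697 probes and each array, without normalisation, and a detection p-value for each, per the file headers. A second deposited table of processed intensity values served as an alternative. The submitters' processing notes name lumi without a version; scanner software, BeadChips and hybridisation batches were not stated there.

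Columns were matched to samples by header, and 0 columns of other samples were present. Intensities were background-corrected (normexp from the detection p-values, offset 16), quantile-normalised and put on the log2 scale with neqc of limma 3.58.1 in R 4.3.3. Probes with a detection p under 0.05 on at least 3 arrays were tested (16126). 1 linear model over the 4 groups with eBayes, without the replicate number, gave all contrasts, with Benjamini-Hochberg adjustment over all tested probes and a threshold of 0.05. The code was tested on simulated data.

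Gene symbols came from GEO's platform annotation: 23978 probes have 1 symbol, 0 have several and 1719 have none, and 0 symbols changed through the RefSeq table (GRCm38.p6). Promoters came from RefSeq, same build. The members, role groups and lists were chosen with earlier results of these data known. Named genes were those with the widest smoke difference by the rule, the 3 lowest p-values in each direction in each genotype contrast and the widest and narrowest replicate spread, besides members of the lists and role groups chosen for their known function. A planned ranking of levels between probes was not used, since levels of different probes are not comparable. A transcript that the rule leaves out is not reported here. Alternatives changed the background correction, normalisation, filter, model and arrays included.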

Additional observations from a re-analysis of the deposited data

Results flagged for a closer look

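In each group of 5 arrays the highest or lowest array of the named members was compared with the rest by Dixon's ratio. Of 114 such checks 9 stood out, and chance gives about 5.7. On the array of KO smoke replicate 3, Gpnmb (ILMN_2614655) read 8.09, against 9.39 to 9.65 in the other KO smoke lungs. Zranb3 read 8.41 there, against 9.36 to 9.68. Mfge8 (ILMN_3133448) read 12.66, against 12.90 to 12.95, and Cd63 (ILMN_3052430) read 10.01, against 10.78 to 10.94. On the array of KO smoke replicate 5, Nme5 read 8.85, against 9.89 to 10.15, Dynlrb2 read 10.70, against 11.61 to 11.74, and Cxcl17 (ILMN_1226394) read 7.92, against 8.86 to 9.11. In the WT smoke lungs, Ptgis read 10.82 in replicate 5, against 10.08 to 10.20, and Timp1 (ILMN_2769918) read 9.56 in replicate 1, against 8.48 to 8.79. All 9 are values of single arrays, and the cause was not tested.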

How the results depend on the processing

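The counts of members called between KO and WT in air and averaged over smoke and air depended on the setting. In air, 5 members were called, against 3 without background correction, 1 with median scaling, 3 without the detection filter, 0 with only the groups compared in the fit, 2 with array weights, 10 with a trended and robust variance, 0 from the deposited processed values and 0 with array background as a covariate. Leaving out 1 array gave 0 to 8. Averaged, 2 were called, against 1 without background correction, 5 with an offset of 50, 0 with median scaling, 6 with a trended and robust variance, 1 from the processed values and 0 with the background covariate, and 0 to 7 when 1 array was left out. The median over members in air lay between 0.23 and 0.40 under these settings, and between 0.29 and 0.51 when 1 array was left out. The background covariate left 46 members called with smoke in KO lungs (107 without it) and 100 in WT lungs (111), and leaving out 1 array gave 103 to 111 and 101 to 112. The interaction had 0 calls in all settings run. By the rule itself, background correction with neqc gave 276 members, of which 108 were shared, the processed values 50, all shared, and quantile normalisation without background correction 78. Leaving out 1 array gave 87 members without WT air replicate 1 and up to 139 without KO air replicate 1. The cause of these changes was not tested. The limma counts under the alternative settings are of members only, and the share of all probes called was not counted there.

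The replicate number as a block gave 10 calls in air, 5 averaged and 1 in smoke (Dbp, 0 without the block). Of 18 pairs of samples with the same number, 5 had deviations correlated over 0.1 (range -0.209 to 0.158). Pairs with different numbers were not compared, so these values do not settle whether the numbers pair the samples. A fit with the BeadChip as block could not be made, since the labels do not give it. Role groups without WT air replicate 1 were added after seeing the data. Precision is limited by 3 arrays in each air group and, for 8 members, by air signals under 2 times the background.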
